A study of Homo sapiens with 20 samples.

Results

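Of 4174 sets of 4 consecutively numbered targeting guides measured in both cell lines, 33 sets, holding 132 of 16566 guides, were less abundant in HEK293FT cells after 14 days of RfxCas13d induction while their change in HAP1 cells stayed above a set limit. The sets were chosen by that pattern. The change of a set was the mean over its guides of the mean log2 signal at day 14 less that at day 0, after each library had been set to 0 at the 30% trimmed mean of its non-targeting guides. A set was taken when this change was below -0.35 in HEK293FT and above -0.2 in HAP1. All 8 libraries of the screen entered the choice, so the changes are given as a description, and calls by a fit to the same libraries are no independent test of them. Targets and spacer sequences of the guides were not used here, and guides are given by their numbers; that 4 numbers form a set was inferred in earlier work from the way neighbouring guides changed together, and is not documented in the labels.

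Cas13d is an RNA-guided nuclease that cuts transcripts matching the spacer of its guide RNA, so that a guide can lower the RNA of a gene without touching the DNA. In a pooled fitness screen each cell carries 1 integrated guide, and guides that slow or kill their host cell become rarer in the population. Reading the guide cassettes from genomic DNA therefore ranks guides by how well their host cells grew. Cell lines can differ in which genes they need, and a comparison of lines that received the same library asks which guides are lost in one and kept in the other.

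The 8 libraries came from 4 groups of 2, namely HEK293FT cells harvested 14 days after induction, HEK293FT cells at day 0, and HAP1 cells at the same times. HEK293FT is a line of human embryonic kidney origin, and HAP1 is a near-haploid line derived from a chronic myelogenous leukaemia. Both carried nuclear-localised RfxCas13d under doxycycline control and were infected separately per replicate with the same lentiviral library at low multiplicity, then kept in puromycin, blasticidin and doxycycline, each line in its own growth medium. Day 0 libraries therefore hold cells with the same guides and the same nuclease construct at the start of induction, and no uninduced arm was analysed here. The deposited values are normalised signal, with totals per library between 2821360 and 3300660, and the number of reads behind them is unknown.

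Targeting sets fell into 2 separate classes of abundance, and this property, which the rule did not use as a criterion, was unevenly shared. The mean day 0 level of a set, as log2 distance from the non-targeting guides, had a median of 0.09 in an abundant class of 505 sets and of -1.92 in a low class of 3669 sets. Only 6 sets lay between -1.25 and -0.5, so the border at -1, chosen after the levels were seen, cut through an almost empty range. The abundant class held 20 of the 33 sets lost in HEK293FT but not HAP1 (60.6%), against 12.1% of all sets. It held 77 of the 167 sets (46.1%) that were below -0.35 in HEK293FT and at or below -0.2 in HAP1. All guides were abundant in 19 of the 33 sets, none was in 13, and 1 set was mixed. Non-targeting guides were also of the abundant kind, with a median set level of -0.04.

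How often the rule picked a set therefore differed with abundance. In the abundant class 3.96% of sets met it, in the low class 0.354%, and among 250 sets of non-targeting guides, which target nothing and are as abundant as the first class, 1 set did (0.4%). Changes below -0.35 in HEK293FT were likewise more frequent among abundant sets (19.2%) than among low sets (2.81%) and non-targeting sets (0.4%). With the signs of both thresholds turned, 1 targeting set and 1 non-targeting set qualified. With the lines exchanged, 259 targeting sets were below -0.35 in HAP1 and above -0.2 in HEK293FT. The 33 sets were 16.5% of the 200 sets below -0.35 in HEK293FT.

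Across the 33 sets the change in HEK293FT ranged from -1.14 to -0.37 with a median of -0.45, and the change in HAP1 from -0.19 to 1.98 with a median of 0.09. Over all sets the medians were -0.03 in HEK293FT and 0.04 in HAP1. In all 33 sets both HEK293FT libraries of day 14 lay below both of day 0, a separation favoured by the choice. It held for 32.4% of all sets, 55.8% of abundant sets and 29.2% of low sets. It also held for 99.4% of the sets below -0.35 in HEK293FT and at or below -0.2 in HAP1. The separation was thus not particular to the 33 sets. In HAP1 the 2 days overlapped in 16 of the 33 sets; in 12 sets both libraries of day 14 lay above both of day 0, as in 31.9% of all sets, and in 5 sets both lay below, against 24.1% of all sets. The HAP1 change was above 0 in 22 of the 33 sets and in 2456 of all 4174 sets, and the rule had removed sets at or below -0.2.

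In the abundant sets of this group the median level was -0.41 and -0.46 in the 2 HEK293FT libraries of day 14, against 0.03 and 0.04 in those of day 0. The same sets in HAP1 had medians of 0.16 and 0.11 at day 14, against 0.03 and 0.09 at day 0. The low sets had medians of -2.43 and -2.16 in HEK293FT at day 14, against -1.81 and -1.87 at day 0. Both replicates of day 14 were thus close to each other for abundant sets and further apart for low sets, where replicate 1 was the lower library in 10 of 13 sets with a median gap of -0.35. Over all low sets that gap had a median of -0.03, and over the 90 low sets that were lower in both lines it was -0.54, with replicate 1 below replicate 2 in 89 of them. Without HEK293FT day 14 replicate 1 the rule kept 18 of the 20 abundant and 6 of the 13 low sets, and without HEK293FT day 0 replicate 1 it kept 17 and 7. Without replicate 2 of day 14 it kept 15 and 11, and without replicate 2 of day 0 it kept 16 and 11. The part of any 1 library in the losses of low sets was not tested.

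A limma fit over all 4174 sets gives the share of sets that stand out from the spread between replicates at a Benjamini-Hochberg adjusted p under 0.05. In HEK293FT it called 15 of the 33 sets lower, beside 3.14% of all sets, and 14 of the 15 were abundant. With the replicate number as a block in the fit it called 29 of the 33, a count without a share of all sets beside it. In HAP1 the fit without a block called 0 of the 33 lower, beside 12.2% of all sets, and 0 by unadjusted p under 0.05. It called 5 of the 33 higher in HAP1, beside 2.85%. The difference between the lines, as an interaction of day and line, was called lower in HEK293FT for 17 of the 33, beside 2.44% of all sets, with differences from -2.36 to -0.52. Nothing can be read from these shares about the group, because the same contrasts chose it. In HEK293FT 18 of the 33 did not pass this fit, and 9 sets were called both in HEK293FT and for the difference.

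The set gID_04389 to gID_04392 had the lowest HEK293FT change of the group. Its levels were -1.31 and -0.99 in HEK293FT at day 14, against 0.05 and -0.07 at day 0, and 0.36 and 0.40 in HAP1 at day 14, against 0.29 and 0.22 at day 0. The change was -1.14 ± 0.11 (SE, n = 2 per day) in HEK293FT, which leaves 45.4% of the day 0 share, and 0.12 ± 0.10 in HAP1, a difference of -1.26 ± 0.15. Each SE here and below is the moderated one of the limma fit. It is drawn towards the spread of all sets and is not that of the set's own libraries alone. The days were separate in both lines, in opposite directions, but limma did not call the HAP1 change (adjusted p 0.50). Such an upward separation in HAP1 held for 31.9% of all sets.

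That mean hid a wide spread, the widest of the group, with 2.91 log2 units between its guides. The guide gID_04391 had a signal of 25.3 and 29.2 in HEK293FT at day 14, against 279.9 and 248.1 at day 0, a change of -3.27. In HAP1 the same guide had 520.9 and 476.4 at day 14, against 455.8 and 442.6 at day 0. Its partners gID_04389, gID_04390 and gID_04392 changed by -0.48, -0.44 and -0.37 in HEK293FT, and by 0.53, 0.32 and -0.50 in HAP1. The guide gID_04392 was thus lower in both lines, and more so in HAP1. All 4 guides were below -0.35 in HEK293FT, which held for no other set of the group, and the 3 partners alone averaged -0.43 there.

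The sets gID_01237 to gID_01240 and gID_11773 to gID_11776 came next with changes of -0.84 ± 0.10 and -0.81 ± 0.07 in HEK293FT (SE, n = 2 per day), beside -0.01 and -0.08 in HAP1. The first had levels of -0.42 and -0.67 in HEK293FT at day 14, against 0.20 and 0.38 at day 0, and 0.28 and 0.11 in HAP1 at day 14, against 0.08 and 0.32 at day 0. The second had -0.84 and -0.89 in HEK293FT at day 14, against -0.05 and -0.06 at day 0, and -0.34 and -0.05 in HAP1 at day 14, against -0.14 and -0.09 at day 0. In both sets the HEK293FT days were well apart and the HAP1 days overlapped.

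Again 1 guide in each set was far below its partners. The guide gID_01238 had a signal of 215.8 and 133.3 in HEK293FT at day 14, against 599.9 and 715.1 at day 0, a change of -1.95. The guide gID_11776 had 126.6 and 151.4 in HEK293FT at day 14, against 539.6 and 504.3 at day 0, a change of -1.91. In HAP1 the change of gID_01238 was -0.11, while gID_11776 was at -0.79, with 352.3 and 411.2 at day 14, against 742.7 and 582.2 at day 0. The guide gID_11775 was at -0.51 in HAP1 as well, so that 2 guides of this set were lower there, offset in the mean by gID_11773 at 0.60 and gID_11774 at 0.37.

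The set gID_15193 to gID_15196 came after these at -0.80 ± 0.28 (SE, n = 2 per day) and rested on 1 value. The guide gID_15193 had a signal of 646.0 and 432.4 in HEK293FT at day 14, against 694.9 and 10420.9 at day 0, so that replicate 2 of day 0 stood 3.90 log2 units above replicate 1. This was the largest gap between the HEK293FT day 0 libraries among all 16566 guides. Without HEK293FT day 0 replicate 2 the set was at -0.25 and did not meet the rule. Its other guides gID_15194, gID_15195 and gID_15196 changed by -0.13, -0.10 and -0.64 in HEK293FT.

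Other day 0 gaps were smaller, but gaps over 1 log2 unit were more frequent in the group than over all guides. Among the 132 guides 4 had HEK293FT day 0 libraries over 1 log2 unit apart (3.03%), against 0.235% of all 16566 guides, and each was the lowest guide of its set. The other three were gID_02690 with 563.0 in replicate 1 and 218.7 in replicate 2, gID_04125 with 445.0 and 214.1, and gID_13533 with 149.3 and 324.8. Their HEK293FT changes were -1.44, -0.93 and -1.07. Below the bound of 1, gID_14235 had 587.0 in replicate 1 and 301.3 in replicate 2 of HEK293FT day 0. Without that guide its set was at -0.16 in HEK293FT. A high value at day 0 lowers the change that the rule used, so such guides were favoured by the choice. These guides were chosen for mention after their values were seen.

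The remaining sets of the lowest 10 differed in how many guides were lower. In gID_16109 to gID_16112 and gID_11713 to gID_11716, both abundant, 3 of the 4 guides were below -0.35. The first had levels of -0.24 and -0.17 in HEK293FT at day 14, against 0.39 and 0.52 at day 0, a change of -0.66 beside 0.18 in HAP1. The second had -0.65 and -0.63 in HEK293FT at day 14, against -0.04 and -0.01 at day 0, a change of -0.61 beside -0.00 in HAP1. Without their lowest guides these sets were still at -0.54 and -0.48, so several guides shared the loss.

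The low sets gID_13009 to gID_13012, gID_02689 to gID_02692 and gID_06689 to gID_06692 had fewer such guides. Their changes in HEK293FT were -0.62, -0.58 and -0.57, beside 0.30, -0.19 and 0.14 in HAP1. In the first the guide gID_13011 alone was below -0.35, with 21.3 and 37.5 in HEK293FT at day 14, against 89.7 and 135.2 at day 0, and without it the set was at -0.17. In the other two sets the guides gID_02690 and gID_06690 were lowest, both at -1.44, and a further guide of each was below -0.35, namely gID_02691 at -0.40 and gID_06692 at -0.91. Without the lowest guides the sets were at -0.29 and -0.29. Levels in these sets spread more between replicates, as in gID_06689 to gID_06692 with -2.84 and -2.47 in HEK293FT at day 14, against -2.16 and -2.01 at day 0.

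A few sets were lower in HEK293FT and higher in HAP1. The set gID_08089 to gID_08092 had the highest HAP1 change of all 4174 sets, with levels of -0.09 and -0.43 in HAP1 at day 14, against -2.45 and -2.02 at day 0. In HEK293FT it had -2.43 and -2.23 at day 14, against -1.81 and -2.08 at day 0. The change was -0.38 ± 0.11 in HEK293FT and 1.98 ± 0.14 in HAP1 (SE, n = 2 per day). The limma fit did not call the set lower in HEK293FT (adjusted p 0.14). The 4 guides changed by -0.55, -0.36, -0.40 and -0.22 in HEK293FT and by 2.53, 2.36, 1.82 and 1.20 in HAP1. The difference of -2.36 between the lines was thus mostly a higher level in HAP1 at day 14, and the HEK293FT change was -0.24 without HEK293FT day 0 replicate 1.

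The set gID_01081 to gID_01084 had levels of -0.89 and -0.73 in HEK293FT at day 14, against -0.23 and -0.30 at day 0. In HAP1 it had 1.28 and 1.33 at day 14, against 0.25 and -0.14 at day 0. The changes of -0.55 ± 0.08 in HEK293FT and 1.25 ± 0.14 in HAP1 (SE, n = 2 per day) were both well clear of the replicate gaps. This is the only abundant set of the group with a HAP1 change above 1. The guide gID_01083 had a signal of 274.6 and 304.9 in HEK293FT at day 14, against 492.3 and 492.9 at day 0, and 1175.6 and 982.6 in HAP1 at day 14, against 453.9 and 481.2 at day 0. The guide gID_01081 was at 0.03 in HEK293FT and at 1.61 in HAP1, so the guide with the most gain in HAP1 was the one with no loss in HEK293FT.

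The set gID_08097 to gID_08100, which is close in number to the set gID_08089 to gID_08092, was also lower in HEK293FT and higher in HAP1. Its levels were -0.60 and -0.50 in HEK293FT at day 14, against -0.09 and -0.10 at day 0, and 0.40 and 0.28 in HAP1 at day 14, against -0.16 and -0.01 at day 0. Its changes were -0.46 in HEK293FT and 0.42 in HAP1, a difference of -0.88 ± 0.13 (SE). The guide gID_08099 carried most of the HEK293FT change with 152.7 and 159.8 at day 14, against 339.7 and 319.5 at day 0, while gID_08098 was at 0.07. The set gID_11653 to gID_11656, next in HAP1 change to the sets of gID_08089 and gID_01081, was a low set at -0.38 in HEK293FT and 0.49 in HAP1. Its HEK293FT change was not called by limma (adjusted p 0.10).

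The set with the most even guides was gID_04877 to gID_04880, whose guides lay within 0.30 log2 units of each other in HEK293FT. Its levels were -0.51 and -0.47 in HEK293FT at day 14, against 0.00 and -0.09 at day 0, and -0.22 and -0.16 in HAP1 at day 14, against -0.03 and -0.06 at day 0. The changes were -0.45 in HEK293FT and -0.14 in HAP1. The guide gID_04880 was lower in both lines, at -0.57 in HEK293FT and -0.64 in HAP1. The days were separate in both lines in the same direction, but limma did not call the HAP1 change (adjusted p 0.38). The difference of -0.30 ± 0.11 (SE) between the lines was not called by limma either.

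Over the 132 guides the HEK293FT change ran from -3.27 to 0.22 with a median of -0.39, and 124 were below 0. In HAP1 the change ran from -0.79 to 2.53 with a median of 0.14. There 86 guides were above 0 and 10 were below -0.35. These counts are given without a share of all guides, so they show no trait of the group. In HEK293FT 71 guides (53.8%) were below -0.35, against 10.1% of all guides, and 16 guides in 15 sets were below -1, against 1.52% of all guides. The limma fit over all guides called 13 of the 132 lower in HEK293FT, beside 1.08% of the whole table; they lay in 11 sets, 10 of them abundant, and ranged from -3.27 to -0.77. In 26 of 33 sets all 4 guides were below 0 in HEK293FT, against 528 of all 4174 sets and 140 of the 505 abundant sets. This also held for 125 of the 167 sets that were lower in both lines, so it was not particular to the 33.

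The number of guides below -0.35 was 1 in 6 sets, 2 in 17, 3 in 9 and 4 in 1. In the 167 sets that were lower in both lines these numbers were 12, 51, 63 and 41. The range over the guides of a set had a median of 0.91 log2 units in the 33 sets, 1.24 in the 167 sets and 0.40 over all sets. Without its lowest guide, a step that raises every set, the median of the 33 sets was -0.29, and 8 were still below -0.35, all of them abundant. In the 167 sets the median after this step was -0.48, and 112 were still below -0.35, 57 of them low. The remaining mean was below 0 in all 33 sets, in all 167 and in 1603 of all 4174.

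Places within a set differed between the lines, in these sets as over all sets. In HAP1 the change went down fully along the numbers in 26 of the 33 sets (78.8%), as in 79.2% of all sets, and the median of the 33 sets ran from 0.43 at the first place over 0.17 and -0.00 to -0.16 at the last. In HEK293FT the medians at the 4 places were -0.52, -0.30, -0.40 and -0.39. The lowest guide in HEK293FT stood at the first place in 13 sets, the second in 5, the third in 9 and the last in 6. In the 167 sets that were lower in both lines it stood there in 12, 19, 38 and 98 sets, and over all 4174 sets in 1009, 960, 1025 and 1180. The medians by place over all sets were -0.03, -0.03, -0.03 and -0.05 in HEK293FT. In HAP1 they were 0.26, 0.08, -0.04 and -0.16, so the falling order there was not particular to the 33 sets. How guides were numbered within a set is not documented in the labels, and its part in this order was not tested. For most of the 33 sets the guide lowest in HEK293FT was not the one lowest in HAP1. Over all sets, too, the last place, mostly the lowest in HAP1, held the lowest HEK293FT guide in only 1180 of 4174. The mismatch is therefore not read as a trait of the group, and the requirement of a HAP1 mean above -0.2 also bears on this order.

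The sets at the thresholds differed little. Just inside the HEK293FT threshold lay gID_13533 to gID_13536, gID_15281 to gID_15284 and gID_06397 to gID_06400, each at -0.37. Just outside lay gID_13817 to gID_13820, gID_06673 to gID_06676 and gID_09045 to gID_09048, each at -0.35 after rounding. Next to the HAP1 threshold, gID_02689 to gID_02692 at -0.19, gID_15337 to gID_15340 at -0.18 and gID_09269 to gID_09272 at -0.16 were taken. The sets gID_02017 to gID_02020 at -0.20, gID_01557 to gID_01560 at -0.21 and gID_07953 to gID_07956 at -0.22 were not.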

How the data were processed

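The 8 RfxCas13d libraries of the HEK293FT and HAP1 essentiality screen were used of 20 in the series. The deposited values are signal per guide, normalised by the authors in a way that is not given in the sources used here; cutadapt 1.13, Bowtie 1.1.2 and GRCh38 are named in the submitters' processing notes without a role. Values had no common step, so reads could not be recovered and precision rests on 2 libraries per day. Rows without a guide ID or values (120 in HEK293FT, 1 in HAP1) were dropped, and 16 and 17 repeated IDs were averaged; 0 of the 132 guides had a repeated ID. No filter on low values was applied, so all 33 sets entered the fit. Sets needed at least 3 of 4 guides per table.

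Log2 signal, set to 0 at the 30% trimmed mean of non-targeting guides, was averaged per set and fitted with limma 3.58.1 (R 4.3.3), day 14 against day 0 per line and as an interaction, with a trended prior and Benjamini-Hochberg adjustment over all sets or guides. The fit was also run on simulated data with normal noise of equal spread for all sets, and the outcome is not given here. That run does not show how the fit behaves on low sets of these data, whose replicates lay further apart. Each line has its own table, so line and the authors' normalisation cannot be told apart.

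The members, sets and thresholds were chosen with earlier results of these data known. Sets were named by a rule: the 10 lowest in HEK293FT, the 3 highest in HAP1, those nearest each threshold, the smallest and largest range over guides, and the 5 with the lowest adjusted p for the difference. The A375 and HfCas13d tables share 0 guide names with these and were not used. Alternatives were other scalings, pseudocounts, filters, thresholds, set borders and priors, a replicate block, and each library left out in turn.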

Additional observations from a re-analysis of the deposited data

Results flagged for a closer look

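By the limma interaction, 17 of the 33 sets had a change that differed between HEK293FT and HAP1, all lower in HEK293FT. The sets were chosen for this difference, so the calls are no independent evidence. In order of adjusted p the first 5 differences, as HEK293FT less HAP1 on the log2 scale, were -2.36 for gID_08089 to gID_08092, -1.80 for gID_01081 to gID_01084, -1.26 for gID_04389 to gID_04392, -0.88 for gID_08097 to gID_08100 and -0.73 for gID_11773 to gID_11776. These 5 passed the threshold under all 21 alternatives of the fit, each library left out in turn included. Of the 17, 10 were abundant and 7 low. With 2 libraries per group, single libraries could not be tested as outliers.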

How the results depend on the processing

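Of 122 alternative values 99 stayed within 1.5 times the count reported, or within the replicate spread for a median, 23 moved further and 0 reversed; the cause was not tested. A like count need not hold the same sets: with the median over guides in place of the mean 43 sets met the rule and only 22 of the 33 were among them. With the set borders moved by 1, 2 and 3 guides, 30, 26 and 33 sets met the rule. Groups of guides across the assumed borders thus qualified in like numbers. Whether the guides of a set share a target was not tested. The number of sets meeting the rule was 21 with total signal scaling (18 of the 33 shared). It was 16 and 122 with the HEK293FT threshold at -0.45 and -0.25. With a library left out it ranged from 33 to 62, with 58 without HEK293FT day 14 replicate 2 and 62 without HEK293FT day 0 replicate 2; 12 of the 33 sets, 10 of them abundant, met the rule in all 8 such repeats. The median HEK293FT change was -0.38 with total signal and ranged from -0.51 (without HEK293FT day 14 replicate 2) to -0.43. The median HAP1 change was 0.13 with total signal and ranged from 0.058 (without HAP1 day 0 replicate 1) to 0.085. Sets called lower in HEK293FT ranged from 22 to 29 with a library left out, sets called in HAP1 from 2 to 7, sets called for the difference from 9 (without HEK293FT day 0 replicate 2) to 18, and guides called lower in HEK293FT from 18 to 32. Sets called in HAP1 were 3 with no trend in the prior. Calls with a library left out were counted over the same 33 sets and their 132 guides, not over the sets that met the rule in that repeat. With all libraries these counts were 15, 5, 17 and 13. Each fit with a library left out had a day without a replicate in that line. Shares of all sets or guides called by such fits are not given, so higher counts show no trait of the group.

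The labels describe separate infections per replicate without saying that a number marks the same infection on both days, and same-numbered libraries deviated oppositely across guides (r = -0.321 in HEK293FT, -0.445 in HAP1). A replicate block called 29 sets lower in HEK293FT (15 without it), 4 sets in HAP1 (5), 13 sets for the difference (17) and 9 guides lower in HEK293FT (13). With the numbers crossed between days, a pairing chosen from these data, the calls were 31 sets in HEK293FT, 8 in HAP1, 30 for the difference and 51 guides. Shares of all sets or guides called by these blocked fits are not given, so their counts show no trait of the group.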

Other observations

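The 33 sets were spread along the guide numbers, from gID_00893 to gID_16388, with 0 pairs of adjacent sets and 19 of 33 among the lower-numbered part of the library that ends before gID_08357. The 65 sets next to them in number had a median HEK293FT change of -0.06, and 3 were below -0.35.

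The 1 non-targeting set that met the rule, gNT_000957 to gNT_000960, was at -0.57 in HEK293FT and -0.10 in HAP1. Its levels were -1.58 and -0.97 in HEK293FT at day 14, against -0.73 and -0.66 at day 0. It had 4 guides in HEK293FT and 3 in HAP1, so its level is not set beside that of HAP1. This was the lowest HEK293FT change of the 250 non-targeting sets, and it was beyond the median of -0.45 measured in the 33 sets. Its single guides are not given here, and whether 1 guide carried the change was not tested.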
